A study of Mus musculus with 16 samples.

Results

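The mRNAs of the aminoacyl-tRNA synthetases were followed in primary mouse hepatocytes given itaconate, lipid or both. Members were taken by gene symbol: every gene of the count table named with a single capital letter and "ars", with or without a closing 1 or 2, and also Eprs, Farsa and Farsb. This found 37 of 55450 genes, 20 for cytosolic and 17 for mitochondrial enzymes, the latter being those whose names end in 2. All 37 passed the filter on low values, which required a mean CPM (counts scaled to a common library total) of 1 or more.

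An aminoacyl-tRNA synthetase joins an amino acid to its tRNA at the cost of ATP, and so supplies the ribosome with its substrates. Animal cells keep a cytosolic and a mitochondrial set, both encoded in the nucleus, and mutations in the mitochondrial set cause inherited disease of brain, heart, liver or ovary. Gars and Kars are each a single gene whose products serve both compartments, and mitochondria make their glutaminyl-tRNA by amidation, so that the table has no Gars2, Kars2 or Qars2. Eprs is a fused enzyme for glutamate and proline, while Farsa and Farsb are the subunits of the cytosolic phenylalanine enzyme. Of the cytosolic enzymes, 8 (Eprs, Dars, Iars, Kars, Lars, Mars, Qars and Rars) belong to the multi-synthetase complex, which the scaffold proteins Aimp1, Aimp2 and Eef1e1 hold together. Many cytosolic synthetase genes are known targets of ATF4, the transcription factor of the amino acid response, which binds a CHOP-ATF response element in their promoters.

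The study measured polyadenylated RNA from primary hepatocytes, all from livers of mice of wild-type genotype, cultured overnight in medium with serum and insulin, transferrin and selenium. The 4 groups of 4 libraries were untreated cells, cells with 10 mM sodium itaconate (a dicarboxylate that activated macrophages make), cells with a defined mixture of fatty acids and cholesterol at a 10-fold dilution, and cells with both additions. Each of the letters A to D names 1 library of every group. What a letter stands for, and whether the 4 letters are separate animals, is not given in the labels. The letter was part of the model, so p-values measure the spread that remains between these libraries once letters are accounted for. That spread may be technical. Libraries held 22346049 to 35512004 expected counts (median 27719372), and the lowest count of a synthetase in any library was 91.

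The hepatocyte label was checked against marker genes, of which none was at 0 in every library. The 5 hepatocyte markers found (from a list led by albumin and transthyretin) summed to 28392 to 51480 CPM. Macrophage markers summed to 140 to 217 CPM with itaconate, 160 to 265 CPM in untreated cells, 204 to 309 CPM with lipid + itaconate and 218 to 316 CPM with lipid. Cd68 alone made up 125 to 300 CPM of that sum, and the other 5 markers read 0.637 to 9.83 CPM each. Cholangiocyte markers summed to 573 to 1171 CPM over the libraries without lipid and to 336 to 646 CPM over those with lipid. That sum was Spp1 (236 to 1045 CPM) and Sox9 (80.8 to 148 CPM), while Krt19, Epcam and Krt7, the defining markers, read at most 0.548, 0.58 and 0.0385 CPM, Krt7 being at 0 in most libraries. Endothelial markers stayed between 6.35 and 15.2 CPM and stellate cell markers between 0.609 and 2.03 CPM. The part of these shifts in the synthetase values below was not tested, and in bulk RNA fewer cells of a type and less RNA per cell cannot be told apart.

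Lipid + itaconate replicate B stood apart from the other libraries of its group, and among synthetases this showed in Lars2, the mitochondrial leucine enzyme (chr9:123366927-123462666, plus strand, GRCm38). Lars2 read 759, 234, 178 and 190 CPM in untreated libraries A to D and 290, 268, 208 and 226 CPM with itaconate. It read 264, 112, 147 and 178 CPM with lipid, and 194, 4267, 151 and 224 CPM with both. The highest library was thus 38-fold above the lowest, while the next widest member, Wars2, spanned 2.09-fold. Gm42418 also spanned 38-fold, from 975 to 37019 CPM, and was highest in the same library. Its transcript shares 1244 bases at 100% identity, in the opposite orientation, with CT010467.1, annotated as ribosomal RNA. CT010467.1 itself read only 1.26 to 70.8 CPM. For every 100 CPM of Gm42418 there were 10.7 to 14.2 CPM of Lars2 (median 11.6, n = 16 libraries). In the same search no Lars2 transcript matched Gm42418 or CT010467.1, while a Lars2 transcript shared 72 bases at 98.6% identity with a transcript of Gm15564. Where the Lars2 reads came from was not tested. Lars2 passed the test in no comparison, and its log2 fold change for lipid + itaconate against itaconate was 1.39 with replicate B and −0.46 without it. Levels and sums of the mitochondrial set are therefore given without Lars2, a choice made after its values were seen. Counts of calls include it, and signed medians of the lipid changes are given both ways.

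**Figure D1:**
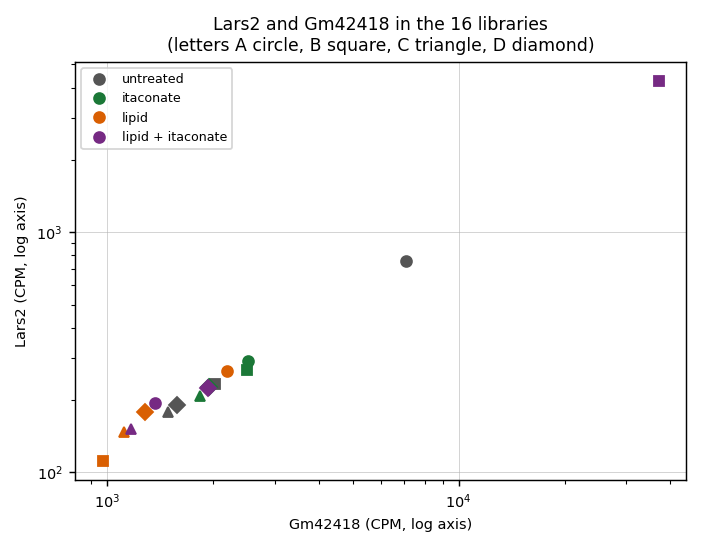
Lars2 against Gm42418 in each of the 16 libraries, both in CPM on log axes, with colour for treatment and marker shape for the letter. Lipid + itaconate replicate B (4267 CPM of Lars2) and untreated replicate A (759 CPM) lie far along 1 line on which the other libraries read 112 to 290 CPM.

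In untreated cells the cytosolic enzymes were the more abundant set on a scale per length, CPM per kilobase of the principal transcript. Cytosolic members ran from 17.7 to 142 CPM per kilobase (median 34.7, n = 20 genes), and mitochondrial members without Lars2 from 0.505 to 33 (median 5.99, n = 16 genes). The ranges overlapped: Yars2, at 33 ± 1.87 (SD, n = 4 libraries), stood among the cytosolic enzymes, above Farsb at 31.1 ± 1.86. Summed without correction for length, cytosolic mRNAs came to 2921 ± 64.2 CPM in untreated, 2907 ± 24.8 with itaconate, 3036 ± 57 with lipid and 2933 ± 72.6 with both (SD, n = 4). The mitochondrial mRNAs without Lars2 came to 379 ± 10.3, 368 ± 7.64, 378 ± 8.55 and 373 ± 9.4 CPM in the same order.

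The asparagine enzyme Nars was highest, at 142 ± 6.7 CPM per kilobase, above Sars at 85.2 ± 3.82, the serine enzyme. Gars (80.1 ± 3.47) and Dars (79 ± 1.58) came next, and these neighbours did not differ beyond their spread. Rars, Aars and Kars lay between 63.9 and 60.9, followed by Tars at 52.1 ± 0.821. Iars (36.6), Qars (36.1), Eprs (33.3), Vars (29.9), Hars (27.1), Cars (25.1), Farsa (24.5), Wars (24.2) and Mars (23.9) formed a run in which each neighbour differed little from the next. Yars (19.2) and Lars (17.7) were the lowest of the cytosolic set. Of the mitochondrial set, Iars2 (17.8), Tars2 (14) and Ears2 (10.9) followed Yars2, and Fars2 (9.5), Hars2 (8.08), Vars2 (6.3), Aars2 (6.23), Cars2 (5.75), Sars2 (5.4) and Rars2 (4.93) came after them. Nars2 (3.24), Wars2 (2.53) and Pars2 (2.38) were low. Mars2 was lowest at 0.505 ± 0.0425, on a principal transcript of 11294 bases. Its uncorrected level of 5.7 CPM was above the 5.21 CPM of Pars2, so its rank depended on that length.

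**Figure D2:**
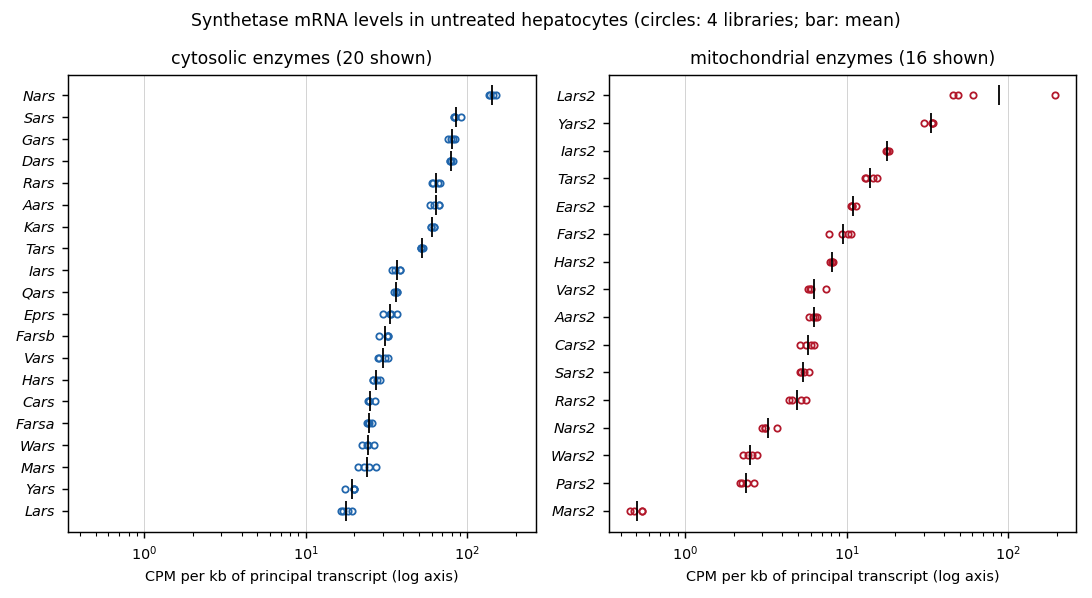
Level of each synthetase in the 4 untreated libraries (circles) with the mean (bar), in CPM per kilobase of the principal transcript on a log axis shared by both panels. The cytosolic set runs from 17.7 (Lars) to 142 (Nars), and the mitochondrial set without Lars2 from 0.505 (Mars2) to 33 (Yars2).

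Promoters were read from RefSeq windows on GRCm38.p6 that hold 250 bases before and 50 bases after a start site, found for 27 members (13 cytosolic, 14 mitochondrial). The CHOP-ATF response element was searched as TGATGNAA on both strands. It was present in 5 of the 13 cytosolic promoters (Aars, Gars, Iars, Tars and Yars) and in 0 of the 14 mitochondrial ones, where 4.51% of all 27025 genes with a window hold it. The E-box CACGTG was in 4 cytosolic promoters (Aars, Farsb, Iars and Tars) and in that of Ears2, against 8.09% of all genes. The motif of the factor NRF1 was in 0 of the 27 (1.07% of all genes), and the interferon-stimulated response element was in 1, that of Qars (3.99%). A match is a run of letters and not a binding site. The 5 windows below, from 100 bases before to 20 bases after the start site, show how close the element lies to the start of transcription, with the element in capitals in the strand of the gene.
Aars, chr8:111033742-111033861, plus strand: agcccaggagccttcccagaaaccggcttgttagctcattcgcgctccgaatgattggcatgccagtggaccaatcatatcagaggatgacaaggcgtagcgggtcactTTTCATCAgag
Gars, chr6:55037901-55038020, plus strand: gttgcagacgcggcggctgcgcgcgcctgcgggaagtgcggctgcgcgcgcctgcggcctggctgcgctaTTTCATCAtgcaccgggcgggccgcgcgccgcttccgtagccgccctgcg
Iars, chr13:49682030-49682149, plus strand: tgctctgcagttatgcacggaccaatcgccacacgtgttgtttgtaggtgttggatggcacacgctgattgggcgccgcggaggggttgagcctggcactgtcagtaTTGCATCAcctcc
Tars, chr15:11399639-11399758, minus strand: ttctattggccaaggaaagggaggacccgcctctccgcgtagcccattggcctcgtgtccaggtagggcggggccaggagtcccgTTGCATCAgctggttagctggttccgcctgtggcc
Yars, chr4:129189803-129189922, plus strand: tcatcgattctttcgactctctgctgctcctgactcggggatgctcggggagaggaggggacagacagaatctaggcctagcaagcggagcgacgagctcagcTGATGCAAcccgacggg

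In these windows the element began at +10 from the start site (+1 being its first base) in Aars, at −30 in Gars, at +8 in Iars, at −15 in Tars and at +4 in Yars. Aars held a further copy at −112. In 4 of the 5 it read in the reverse orientation, as TTTCATCA in Aars and Gars and TTGCATCA in Iars and Tars, and in Yars it read forward. The 5 genes with the element did not move as a block with lipid. With lipid their log2 fold changes were 0.07 for Aars, 0.27 for Gars, 0.18 for Iars, −0.16 for Tars and 0.21 for Yars, and in itaconate-treated cells lipid gave −0.02, 0.27, 0.07, −0.30 and 0.05. For itaconate against untreated 4 of the 5 were above 0 and 1 below. When itaconate was added to lipid all 5 were below 0 (−0.06, −0.09, −0.11, −0.02 and −0.14 in the same order). In that comparison 29 of the 37 members were below 0, and no member passed the test.

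The first question put to the members was what lipid did to them, with and without itaconate. Lipid moved synthetases in both directions and by modest amounts. Against untreated cells, 13 members rose and 6 fell, 19 of 37 (51.4%) by edgeR at an adjusted p below 0.05, where 47.5% of all 11675 genes tested were called, 23.8% higher and 23.7% lower. In itaconate-treated cells 9 rose and 6 fell, 15 of 37 (40.5%), against a background of 47% (23.5% in either direction). Both shares were near those of all genes, and the number of calls by itself sets nothing apart in the synthetases. By compartment, lipid against untreated called 9 of 20 cytosolic members (7 higher, 2 lower) and 10 of 17 mitochondrial members (6 higher, 4 lower). In the presence of itaconate it called 6 of 20 (4 higher, 2 lower) and 9 of 17 (5 higher, 4 lower).

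Cytosolic changes were the smaller in size. The median size of the log2 fold change, without regard to sign, was 0.111 for cytosolic members and 0.249 for mitochondrial members without Lars2, with 0.185 for all genes tested. The median standard error was 0.0452, 0.0822 and 0.0733 in the same order, so the less abundant mitochondrial mRNAs were also measured with more error. The signed median was 0.090 for cytosolic and 0.007 for mitochondrial members without Lars2, and 0.005 for all genes. With Lars2 the mitochondrial median was −0.064, so its sign depended on that gene. In itaconate-treated cells the signed medians were 0.031, −0.009 and 0.004 in the same order, and −0.003 for the mitochondrial set with Lars2. The difference between the compartments was not tested. Marker genes of other cell types moved with lipid as well: against untreated cells Spp1 and Sox9 of the cholangiocyte list fell, 1 macrophage marker of 6 (Cd68) rose and 2 (Adgre1 and C1qa) fell, 1 endothelial marker of 4 rose and 1 fell, and 2 of 5 hepatocyte markers fell. In itaconate-treated cells these calls were 2 lower for cholangiocytes, 1 higher and 5 lower for macrophages, 1 lower for endothelial cells and 3 lower for hepatocytes. Without and with itaconate, lipid called 47.5% and 47% of all genes tested, with 23.7% and 23.5% lower.

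Of the members called, 12 were called in both lipid comparisons, 12 of the 19 without itaconate and 12 of the 15 with it, and each of the 12 had the same direction in both. As shares these are 63.2% and 80%. Over all genes 4206 were called in both, 75.8% and 76.7% of those called in each comparison, and 99.9% of them had the same direction. Of the 12 synthetases, 8 were higher, among them Gars, Hars2, Lars, Pars2, Qars, Rars2 and Vars2, and 4 were lower, Aars2, Iars2, Tars and Wars2. These comparisons have no library in common, although they share the letters and 1 model. A further 7 passed only without itaconate (Cars2, Farsa, Iars, Mars, Nars2, Sars and Yars) and 3 only with it (Eprs, Farsb and Mars2). For none of these 10 did the interaction, which tests the difference between the comparisons, pass. The remaining 15 passed in neither.

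**Figure D3:**
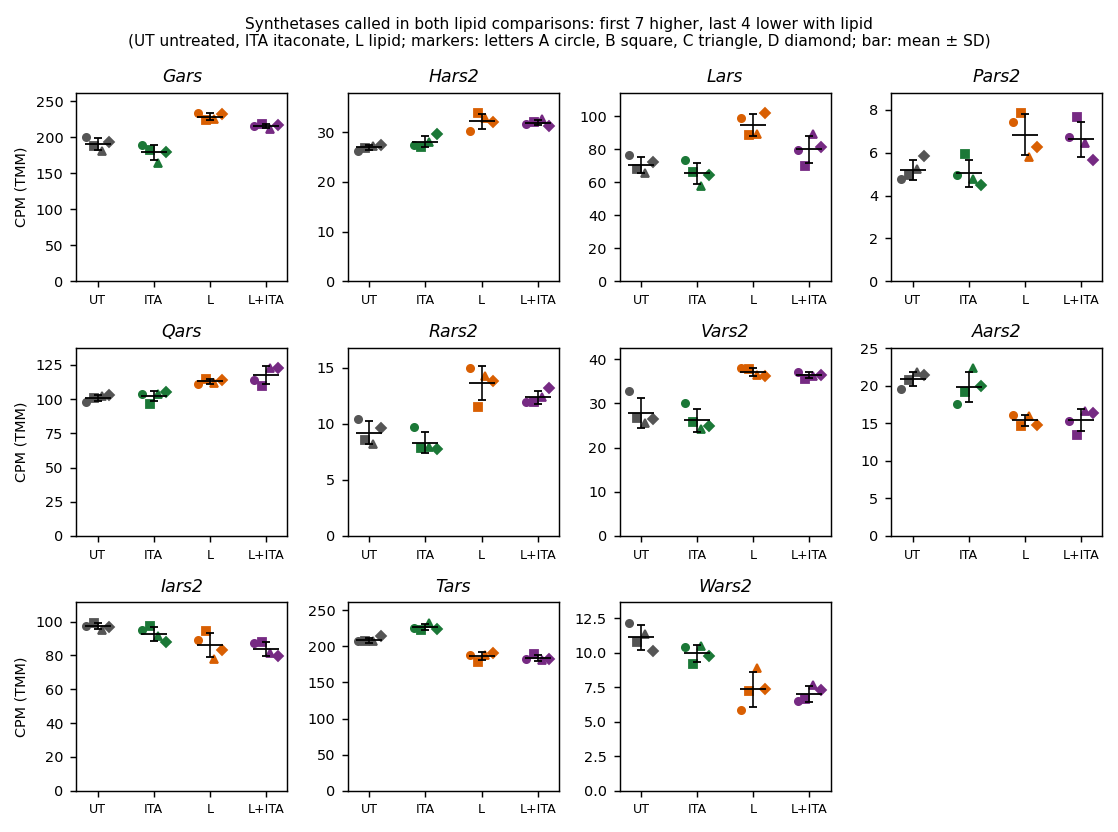
CPM in every library (markers by letter) with mean ± SD (n = 4) for the synthetases named here that were called in both lipid comparisons, on axes that start at 0. Gars, Hars2, Lars, Pars2, Qars, Rars2 and Vars2 were higher with lipid, and Aars2, Iars2, Tars and Wars2 were lower.

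Gars, which charges glycine for both compartments (chr6:55038007-55079500, plus strand), rose most firmly among the cytosolic members. It read 200, 188, 181 and 194 CPM in untreated libraries A to D and 234, 224, 225 and 233 CPM with lipid. Every lipid library lay above every untreated one, a log2 fold change of 0.27 ± 0.038 (SE, edgeR adjusted p = 3.9e-05), or 20.3%. In itaconate-treated cells it read 190, 183, 165 and 179 CPM, and 216, 218, 212 and 217 CPM once lipid was added. The groups were again apart, with a log2 fold change of 0.27 ± 0.038 (adjusted p = 4.23e-05).

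Lars, the leucine enzyme of the complex, had the largest cytosolic rise. It read 76.3, 67.9, 65.4 and 72.1 CPM in untreated and 98.7, 88.6, 89.1 and 102 CPM in lipid-treated cells. The groups did not overlap, and the log2 fold change was 0.42 ± 0.070 (adjusted p = 0.000152), or 34.2%. With itaconate it read 73.3, 66.3, 57.8 and 64.2 CPM, and with both 79.3, 69.6, 89.5 and 81.4 CPM. Replicate B of the last group lay inside the range of the itaconate group, so these groups overlapped, though each letter was higher with lipid (0.29 ± 0.070, adjusted p = 0.00311).

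Qars, the glutamine enzyme and also a part of the complex (chr9:108507706-108515941, plus strand), rose by less. Its untreated libraries read 97.9, 101, 102 and 103 CPM and its lipid libraries 111, 115, 112 and 114 CPM, without overlap (0.16 ± 0.041, adjusted p = 0.00397). From 104, 96.4, 104 and 105 CPM with itaconate it went to 114, 110, 123 and 123 CPM with both, again without overlap (0.19 ± 0.041, adjusted p = 0.00116).

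Tars, the threonine enzyme (chr15:11382301-11399665, minus strand), was the cytosolic member that fell in both comparisons. Untreated cells gave 207, 207, 207 and 214 CPM and lipid-treated cells 188, 178, 188 and 191 CPM, with all lipid libraries lower (−0.16 ± 0.037, adjusted p = 0.00179). Itaconate-treated cells gave 226, 223, 233 and 224 CPM and cells with both 182, 190, 181 and 182 CPM. That fall of 18.9% (−0.30 ± 0.037, adjusted p = 1.09e-05) had the smallest p of the cytosolic members. Tars was thus at its highest in the itaconate libraries, where its value against untreated was 0.12 ± 0.037 (adjusted p = 0.0751).

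Yars, the tyrosine enzyme (chr4:129189760-129219607, plus strand), passed only without itaconate. It read 57.7, 51, 57.6 and 57.5 CPM in untreated and 66.4, 61.4, 65 and 65.9 CPM in lipid-treated cells, which did not overlap (0.21 ± 0.051, adjusted p = 0.00319). With itaconate it read 62.8, 55.2, 53.5 and 55.4 CPM, and with both 56.6, 56.4, 59 and 63.4 CPM, 2 groups that overlapped (0.05 ± 0.051, adjusted p = 0.409). Farsb, the beta subunit of the phenylalanine enzyme, had the reverse pattern of calls. It read 57.7, 65.9, 65.3 and 64.3 CPM untreated and 67.4, 69.2, 69 and 68.2 CPM with lipid, which missed the threshold although the groups did not overlap (0.11 ± 0.046, adjusted p = 0.0504). It read 53.7, 63.2, 56.9 and 59.7 CPM with itaconate and 64.5, 63.3, 66.4 and 64.9 CPM with both, which passed (0.15 ± 0.046, adjusted p = 0.0122). The interaction was −0.16 ± 0.072 for Yars and 0.04 ± 0.064 for Farsb (adjusted p = 0.563 and 0.906).

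The other cytosolic calls were small. Without itaconate, Iars (0.18, adjusted p = 0.00718), Mars (0.12, adjusted p = 0.0403) and Sars (0.11, adjusted p = 0.0239) rose, and Farsa, the alpha subunit (−0.15, adjusted p = 0.0293), fell. With itaconate Eprs fell (−0.13, adjusted p = 0.0268). Of 15 alternative fits, the call was lost in 8 for Mars, 6 for Sars, 7 for Farsa and 9 for Eprs, and in 0 for Iars. Mars overlaps Ddit3 on the opposite strand, and the library kit marked strand but the strand setting of the counting is not given in the sources used here, so reads of the pair may have been mixed. Of the 8 members of the complex, 4 rose and 0 fell with lipid in untreated cells, while 2 rose and 1 fell in itaconate-treated cells. These are 50% and 37.5% of the complex, beside 47.5% and 47% of all genes. Of the 12 cytosolic members outside it, 3 rose and 2 fell, and then 2 rose and 1 fell.

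In the mitochondrial set Rars2, for arginine (chr4:34614957-34660167, plus strand), had the largest rise. It read 10.4, 8.53, 8.22 and 9.67 CPM in untreated and 15, 11.5, 14.3 and 13.8 CPM in lipid-treated cells. The groups did not overlap and the log2 fold change was 0.57 ± 0.088 (adjusted p = 8.9e-05), or 48.3%. It read 9.72, 7.8, 7.91 and 7.78 CPM with itaconate and 11.9, 11.9, 12.4 and 13.2 CPM with both, a rise of the same size without overlap (0.57 ± 0.088, adjusted p = 9.8e-05).

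Vars2, for valine (chr17:35655634-35667592, minus strand), had the smallest p of all members in both lipid comparisons. Its untreated libraries read 32.9, 26.7, 25.5 and 26.4 CPM and its lipid libraries 38.1, 37.9, 36.4 and 36.3 CPM. Even the high untreated replicate A lay below every lipid library (0.42 ± 0.058, adjusted p = 2.86e-05). With itaconate it read 30, 25.8, 24.2 and 24.8 CPM and with both 37.2, 35.6, 36.2 and 36.5 CPM, without overlap (0.48 ± 0.058, adjusted p = 1e-05).

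Aars2, for alanine (chr17:45506841-45520843, plus strand), was among the mitochondrial members that fell. It went from 19.6, 20.7, 21.8 and 21.4 CPM to 16.1, 14.6, 16 and 14.8 CPM with lipid, without overlap (−0.44 ± 0.072, adjusted p = 0.00014), a fall of 26.4%. In itaconate-treated cells it went from 17.6, 19.2, 22.4 and 19.9 CPM to 15.3, 13.4, 16.7 and 16.4 CPM, also without overlap (−0.35 ± 0.071, adjusted p = 0.000902).

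Wars2, for tryptophan (chr3:99141068-99239186, plus strand), was outside the rule for named members and is given because, among members that passed the test, it had the largest fall. It read 12.2, 10.8, 11.4 and 10.1 CPM in untreated and 5.85, 7.22, 8.92 and 7.39 CPM in lipid-treated cells (−0.60 ± 0.102, adjusted p = 0.000199). It read 10.4, 9.2, 10.5 and 9.8 CPM with itaconate and 6.49, 6.63, 7.65 and 7.31 CPM with both (−0.51 ± 0.102, adjusted p = 0.000902). All libraries with lipid lay below all libraries without it.

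The remaining mitochondrial calls ran both ways. Hars2 (0.26 and 0.18, adjusted p = 0.00044 and 0.0051 without and with itaconate) and Pars2 (0.38 and 0.39, adjusted p = 0.0142 and 0.011) rose in both comparisons, and Iars2 fell in both (−0.18 and −0.14, adjusted p = 0.0025 and 0.00913). The 5′ ends of Hars2 and Hars overlap on opposite strands, so their counts carry the same doubt as those of Mars. The bounds of other called members also overlap genes on the opposite strand, among them Cars2 with Naxd, Iars2 with Rab3gap2 and Farsb with Sgpp2. Whether reads of these genes were mixed was not tested. Nars2 rose without itaconate (0.31, adjusted p = 0.0137), and Mars2 fell with it (−0.38, adjusted p = 0.0184). Ears2, Fars2, Sars2, Tars2 and Yars2 passed in neither, with log2 fold changes from −0.21 to 0.12.

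Enzymes for the same amino acid often had unlike values in the 2 compartments. For tryptophan, lipid gave Wars −0.08 ± 0.048 (adjusted p = 0.202) beside −0.60 for Wars2. For valine it gave Vars −0.03 ± 0.044 (adjusted p = 0.564) beside 0.42 for Vars2, and for arginine Rars 0.09 ± 0.047 (adjusted p = 0.112) beside 0.57 for Rars2. For alanine Aars had 0.07 ± 0.035 (adjusted p = 0.127) beside −0.44 for Aars2. The isoleucine enzymes were called in opposite directions, Iars at 0.18 and Iars2 at −0.18, while the histidine enzymes had the same sign, Hars at 0.13 (adjusted p = 0.0548) and Hars2 at 0.26. Threonine had Tars at −0.16 and Tars2 at 0.08 ± 0.051 (adjusted p = 0.215). The differences within these pairs were not tested.

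**Figure D4:**
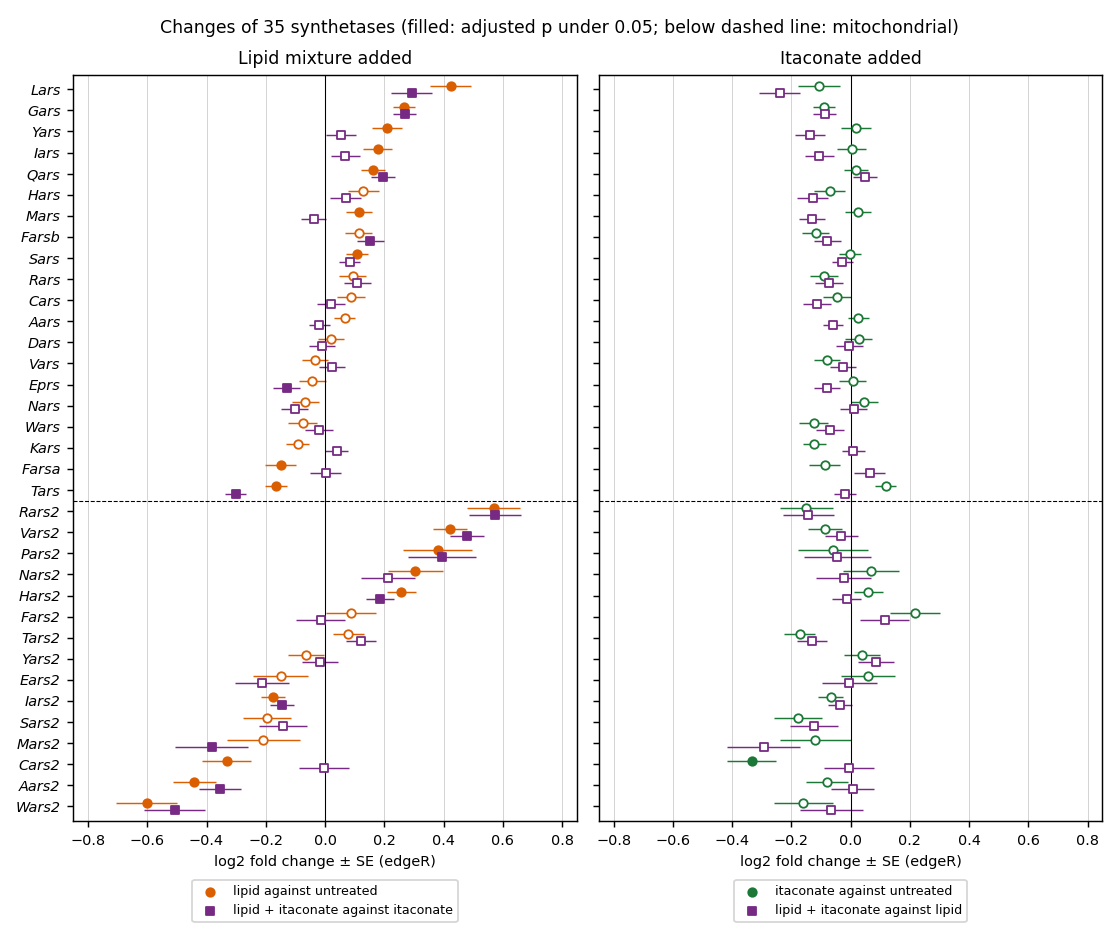
Log2 fold change ± SE (edgeR, n = 4 libraries a group) of the synthetases described here, other than Lars2, when lipid was added (left) and when itaconate was added (right), each without and with the other agent, with mitochondrial members below the dashed line and filled symbols for an adjusted p under 0.05. Lipid values spread from −0.60 (Wars2) to 0.57 (Rars2), and Cars2 (−0.33) is the 1 filled symbol on the right.

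The second question was what itaconate did, and few synthetases passed the test. Against untreated cells 1 of 37 was called, against 4.91% of all genes tested (1.96% higher, 2.95% lower), and this was Cars2, the mitochondrial cysteine enzyme (chr8:11513977-11550783, minus strand). At an unadjusted p under 0.05 there were 9 members (24.3%), beside 21.3% of all genes. With lipid present 0 of 37 passed in edgeR, against 2.58% of all genes (1.32% higher, 1.26% lower), with 10 members (27%) at an unadjusted p under 0.05, beside 17.3% of all genes. DESeq2 called 2 (Cars2 and Tars) and 1 (Lars), where it called 6.78% and 4.36% of all genes. For comparison, 344 genes fell and 229 rose with itaconate over the whole table.

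Cars2 read 11.9, 10.7, 9.71 and 11.5 CPM in untreated and 8.96, 9.28, 8.43 and 8.04 CPM in itaconate-treated cells. All itaconate libraries lay below all untreated ones, and the log2 fold change was −0.33 ± 0.083 (edgeR adjusted p = 0.0305), a fall of 20.6%. The call was lost in 8 of 15 alternative fits, with adjusted p from 0.0226 to 0.121. Cars2 also overlaps Naxd on the opposite strand, so the doubt given for the counts of Mars extends to it. Lipid alone gave a value of the same size, with 9.63, 8.58, 8.31 and 8.24 CPM (−0.33 ± 0.083, adjusted p = 0.00401). Cells with both read 8.51, 8.44, 8.37 and 9.29 CPM, in the range of the lipid libraries, and neither addition on top of the other passed (−0.003 ± 0.083 for lipid and −0.005 ± 0.084 for itaconate, adjusted p = 0.979 and 0.989). These comparisons share the untreated libraries. The interaction for Cars2 was 0.33 ± 0.118, with an unadjusted p = 0.0132 and an adjusted p = 0.449 from edgeR.

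Lars had the smallest p when itaconate was added to lipid, −0.24 ± 0.069, but did not pass (adjusted p = 0.0784), and its groups overlapped. For itaconate against untreated Lars was at −0.11 ± 0.070 (adjusted p = 0.399). Values below 0 outnumbered those above, 23 of 37 for itaconate against untreated and 29 of 37 in the presence of lipid, where all genes tested had 5900 and 5843 of 11675 below 0. The medians were −0.070 and −0.036 for synthetases, against −0.002 and −0.000 for all genes. Leaving out lipid + itaconate replicate C brought 5 cytosolic members past the threshold (Cars, Hars, Iars, Lars and Rars, all lower), so the count of 0 with lipid present rested on that library. The share over all genes rose in the same fit, from 2.58% to 7.61%. Leaving out replicate B, the library that stood apart, gave 0 calls again.

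Wars and Kars were looked at for reasons fixed by their biology. Human WARS is a known interferon-induced gene. The mouse interferon-induced genes listed beside it fell together, 11 of 12 with itaconate and 12 of 12 with lipid. Of all genes tested, 2.95% and 23.7% were called lower in these comparisons. The largest falls were those of Ifit3, Ifit1 and Gbp2 with itaconate (−1.38, −1.26 and −0.93) and of Ifit3, Ifit1 and Cxcl10 with lipid (−1.74, −1.42 and −1.34). With the other agent present, 6 of 12 fell with itaconate and 10 of 12 with lipid, beside 1.26% and 23.5% of all genes. Wars read 43.3, 40.7, 44.1 and 48.3 CPM untreated, 39.4, 36.7, 39.6 and 46.1 CPM with itaconate, 41.7, 39.4, 40.7 and 45.4 CPM with lipid and 40.3, 34.1, 42.9 and 42.2 CPM with both. The 4 groups overlapped and Wars passed in no comparison. Its value was −0.13 ± 0.048 for itaconate against untreated (adjusted p = 0.138), lower in each of the 4 letters.

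Kars, the lysine enzyme of both compartments and of the complex (chr8:111993443-112011323, minus strand), also passed in none. It read 125, 120, 119 and 124 CPM untreated, 113, 115, 106 and 114 CPM with itaconate, 112, 118, 117 and 111 CPM with lipid and 117, 118, 113 and 113 CPM with both. Each treated library lay below each untreated one, by values of −0.12 ± 0.039 for itaconate (adjusted p = 0.0845) and −0.09 ± 0.039 for lipid (adjusted p = 0.0647). With the other agent present the values were 0.01 ± 0.039 for itaconate and 0.04 ± 0.039 for lipid. Gars, the other enzyme of both compartments, was at −0.09 ± 0.038 for itaconate in both settings (adjusted p = 0.182 and 0.238).

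The third question was whether itaconate changed the effect of lipid. No synthetase passed the interaction test in edgeR or DESeq2, where edgeR called 0.00857% of all genes, a single gene. At an unadjusted p under 0.05 there were 5 members (Cars2, Tars, Mars, Kars and Yars, 13.5%), beside 8.6% of all genes. The interaction of Tars was −0.14 ± 0.052 (adjusted p = 0.473), that of Mars −0.15 ± 0.062 (adjusted p = 0.504) and that of Kars 0.13 ± 0.055 (adjusted p = 0.532). For Rars2 and Gars the interaction was 0.006 ± 0.124 and 0.002 ± 0.053 (adjusted p = 0.995 and 0.996).

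Genes that work beside the synthetases changed with lipid in both directions too. Of 16 accessory genes, 5 rose and 4 fell with lipid, and 4 rose and 4 fell when itaconate was present. These are 56.2% and 50%, near the 47.5% and 47% of all genes. Of the scaffold genes of the complex, lipid called Aimp1 higher (0.16 ± 0.050, adjusted p = 0.0138) and Aimp2 lower (−0.45 ± 0.078, adjusted p = 0.00022). Eef1e1 was not called (0.17 ± 0.081, adjusted p = 0.0993). Aimp2 read 55.9, 61.5, 65.6 and 55.8 CPM untreated and 40.1, 42.2, 48.4 and 44 CPM with lipid, with no overlap. Tarsl2, a second cytosolic threonine enzyme that the symbol rule leaves out, fell like Tars (−0.52 ± 0.081 and −0.58 ± 0.080, adjusted p = 8.07e-05 and 3.48e-05).

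Ppa1 and Ppa2, the cytosolic and mitochondrial pyrophosphatases that remove the pyrophosphate released by charging, both fell with lipid (−0.36 and −0.30, adjusted p = 2.29e-06 and 0.00102). Mtfmt, which formylates the mitochondrial initiator methionyl-tRNA, rose (0.33, adjusted p = 0.00117), as did Pstk, a kinase of the selenocysteine pathway (0.34, adjusted p = 0.000925). Gatc and Qrsl1, subunits of the mitochondrial amidotransferase that makes glutaminyl-tRNA, rose without itaconate (0.23 and 0.26, adjusted p = 0.0339 and 0.0445). The 1 accessory gene called with itaconate was Dtd2, which removes mischarged amino acids from tRNA (−0.35 ± 0.094, adjusted p = 0.0455). That is 6.25% of the accessory list, beside 4.91% of all genes.

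Of 34 listed genes of ATF4 and the amino acid response, 32 were tested. With lipid 15 rose and 5 fell, and with lipid on top of itaconate 11 rose and 8 fell. The share called was 62.5% and 59.4%, beside 47.5% and 47% of all genes, of which 23.8% and 23.5% rose. The largest changes with lipid were rises of the proline synthesis genes Pycr1 (1.11 ± 0.202) and Aldh18a1 (0.83 ± 0.198) and of Chac1 (0.74 ± 0.138), which degrades glutathione, and Pycr1 was at 0.667 to 1.26 CPM in untreated cells. Itaconate called 3 of the 32 (9.38%), beside 4.91% of all genes. Slc38a2, an amino acid transporter, and Cebpg rose (0.27 and 0.18), and the cystine transporter Slc7a11 fell (−0.26). With lipid present itaconate called Slc38a2 (0.19, higher) and asparagine synthetase Asns (−0.37, lower), 6.25% beside 2.58% of all genes. Atf4 itself was at 0.01 ± 0.048 for lipid and 0.05 ± 0.048 for itaconate (adjusted p = 0.846 and 0.611) and passed in no comparison.

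Among the 11 genes for eIF2 kinases and the eIF2 and eIF2B subunits, 3 rose and 3 fell with lipid, led by the kinase genes Eif2ak3 (−0.82 ± 0.050) and Eif2ak2 (−0.67 ± 0.065) and by Eif2b3 (0.63 ± 0.070), and 2 rose and 2 fell with lipid on top of itaconate. The share called was 54.5% and 36.4%, beside 47.5% and 47% of all genes. Eif2ak2, which is itself interferon-induced, was the 1 gene of the list called with itaconate (−0.40 ± 0.065, adjusted p = 0.00232). That is 9.09% of the list, beside 4.91% of all genes. Of 11 genes of translation elongation, which are elongation factors and Eef2k, the kinase that inhibits elongation factor 2, 2 rose and 5 fell with lipid, the largest changes being those of Eef2k (0.89 ± 0.108), Eif5a (−0.29 ± 0.044) and Eef1b2 (−0.23 ± 0.042). With lipid on top of itaconate 2 rose and 4 fell, so that 63.6% and 54.5% of these 11 genes were called, beside 47.5% and 47% of all genes. Itaconate called Gfm1 without lipid (−0.18 ± 0.049) and Eef2k with it (−0.65 ± 0.105), both lower. Each is 9.09% of the elongation list, beside 4.91% and 2.58% of all genes.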

How the data were processed

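The authors made stranded libraries from poly(A) RNA (RIN above 8 per the labels). The submitters' processing notes name bcl2fastq 2.20, cutadapt 1.18, STAR 2.7.0f, Picard 2.18.26, RSEM 1.3.1 and mm10. The authors deposited unnormalized expected counts from RSEM for each gene. RSEM divides ambiguous reads between genes, and 5.41% of the values were not whole.

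Rounded counts were tested with edgeR 4.0.16 (R 4.3.3). The filter was a mean CPM of 1 or more across all 16 libraries, which left 11675 genes. After TMM normalization the quasi-likelihood test was run with treatment and replicate letter in 1 model of all libraries, and p-values were adjusted over all genes tested (Benjamini-Hochberg, threshold 0.05). Standard errors are those of the log2 fold change, and CPM are TMM-normalized. The script was tested on simulated data. The letters pair the libraries, by the labels' letters and by a check on the data. Over 24 pairs with the same letter the correlation of deviations from the group means was 0.144 to 0.469 (median 0.263). Over 72 other pairs it was −0.436 to 0.178 (median −0.114), so the ranges overlapped. Deviations within a group sum to 0, so positive values for same-letter pairs go with negative ones for the others. Within a group no library was a duplicate of another, and pairs across groups were not checked. Alternatives were no replicate block, RLE size factors, the filterByExpr filter, no filter, limma-trend (limma 3.58.1), DESeq2 1.42.0, only the libraries of a comparison, and each library left out.

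Positions and principal transcripts came from GENCODE M21 (all 55450 identifiers matched), promoters from RefSeq (GRCm38.p6), and similarity between transcripts from blastn 2.17.0. Compartment was taken from the symbol, and complex membership from general knowledge. All library columns were used. Values in every library are given for members called in an itaconate comparison or the interaction, for the 5 cytosolic and 3 mitochondrial members with the smallest p in each lipid comparison, and for Wars, Gars and Kars. Of the other gene lists the 3 largest changes among called genes are named where there are that many, and any called accessory gene may be named. For 1 member that this rule picks, values are not reported here. Atf4, Eef1e1, Lars2, Wars2 and Gm42418 are named outside this rule. The members and lists were chosen with earlier results of these data known.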

Additional observations from a re-analysis of the deposited data

Results flagged for a closer look

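In 60 groups of 4 libraries (15 members), 8 had a library far from the other 3 of its group, by a gap that exceeded Dixon's 95% critical value for its share of the group's range, where chance gives about 3. For Lars2 these were untreated replicate A at 759 CPM and lipid + itaconate replicate B at 4267 CPM, the libraries that are also highest in Gm42418. Lars2 was named outside the rule for named members, and its flags are counted in the 8 set against chance. For Tars they were untreated replicate D at 214 CPM, above 207 CPM in the others, and lipid + itaconate replicate B at 190 CPM, above 181 to 182 CPM. For Vars2 untreated replicate A was high at 32.9 CPM, and for Rars2 itaconate replicate A was high at 9.72 CPM. For Yars untreated replicate B was low at 51 CPM, and for Cars2 lipid + itaconate replicate D was high at 9.29 CPM.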

How the results depend on the processing

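The counts of synthetases called with lipid stayed within 1.5 times those reported under every alternative run: 15 to 21 against 19 without itaconate and 12 to 17 against 15 with it. Over the same fits 22.4% to 48.2% and 22.2% to 47.1% of all genes were called. Both shares were lowest with no filter, where 17 and 16 synthetases were called. Without the replicate block, in the unpaired fit, the counts were 16 and 14 for lipid, 0 and 0 for itaconate and 0 for the interaction, while the shares of all genes called fell to 35.5% and 34.2%, 0.197% and 0.0771%, and 0%. For itaconate against untreated (1 called) DESeq2 called 2 (6.78% of all genes), the fit of only the libraries of the comparison 5 (Cars2, Kars, Tars, Tars2 and Wars, beside 16% of all genes), and leaving out 1 library 0 to 1, the call being lost without untreated A, B or D or itaconate A, C or D. Over the fits with 1 library left out, 1.28% to 3.38% of all genes were called. With no filter the 1 call was Lars2 and not Cars2, beside 4.34% of all genes. For lipid + itaconate against lipid (0 called) no filter gave 2 (Lars and Lars2, beside 2.88% of all genes), DESeq2 1 (4.36%), and leaving out 1 library 0 to 5 (0.505% to 7.61%). For the interaction (0 called) no filter gave 1, which was Lars2, beside 0.918% of all genes. Of single values, those that changed sign had been near 0 or rested on 1 library. When 1 library was left out, Lars2 for itaconate against untreated ran from −0.6957 to 0.3531 (without untreated replicate A), and for lipid + itaconate against itaconate from −0.4577 (without lipid + itaconate replicate B) to 2.0784. In the same way Kars for lipid + itaconate against lipid ran from −0.0153 to 0.0369, and Wars for lipid + itaconate against itaconate from −0.0634 to 0.0132. The causes were not tested. Of the values of members that had passed, 474 kept direction and call under an alternative, 51 lost the call and 0 changed sign. The less abundant mitochondrial members have larger standard errors, so that small changes of these were less detectable.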
